A study of Mus musculus with 5 samples.

Results

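Selectin ligands are the glycans by which T cells catch on to selectins of the vessel wall, the first step of entry into skin. Of the 24084 genes counted, 8 that carry or build them are described here in regulatory T cells (Tregs) of neonatal mouse skin: the scaffolds Selplg and Cd44, the fucosyltransferases Fut7 and Fut4, the branching enzyme Gcnt1, the sialyltransferases St3gal4 and St3gal6, and the galactosyltransferase B4galt1. They were chosen by gene symbol, for their known roles, with earlier results of these data known. Libraries of skin Tregs had more Cd44, Fut7 and Gcnt1 RNA than libraries of Tregs of the skin-draining lymph nodes. Selplg, B4galt1, St3gal4 and St3gal6 did not pass the test, and Fut4 was too low to be tested.

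RNA was sequenced in 2 libraries from skin Tregs and 3 from Tregs of skin-draining lymph nodes. Both groups were from mice aged 13 days of the strain labelled Foxp3-DTR (Foxp3-DTR/GFP in the design text), whose modified Foxp3 gene puts the diphtheria toxin receptor and GFP under the control of the Treg gene itself, and the labels name no treatment. Sort gate and animal numbers per library were not stated in the labels. The p-values therefore reflect only how these libraries vary, which may be technical.

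As background, leukocytes tether to P-selectin and E-selectin on endothelium through the tetrasaccharide sialyl Lewis X. Its chain gains galactose from beta-galactosyltransferases such as B4galt1, is capped with sialic acid by St3gal enzymes and is completed with fucose by Fut7. Fut4 is a further fucosyltransferase. Gcnt1 adds the core 2 branch that lets an O-glycan carry this group in place of a short sialylated core 1 glycan. Selplg (PSGL-1) is the main protein scaffold for P-selectin binding, and Cd44, the hyaluronan receptor, can carry E-selectin ligands. Resting T cells lack most of this decoration and activated, skin-homing T cells gain it.

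Gene counts were 10787378 and 10468795 in the skin libraries, against 12305644 to 14595018 in the lymph node libraries, with 9894 and 9192 genes detected in skin against 12173 to 12540 in lymph node. Pearson r of log2 levels across tested genes was 0.612 between the skin libraries. Skin library 1 was as close to the lymph node libraries (0.615 to 0.620), and skin library 2 was less close to them (0.572 to 0.582). The lymph node libraries correlated with each other at 0.902 to 0.910. In skin, 28.5% of the 11437 tested genes differed over 10-fold between its 2 libraries. Of 16 Treg and T cell markers 15 were in the table, each with counts in every library, and they summed to 15775 and 17269 CPM (a counts-per-million scale, here of unscaled gene counts) in skin and to 18366 to 21013 in lymph node. Of 18 macrophage and dendritic cell markers, 17 were in the table. Their sum was 1458 and 2129 CPM in skin, with 13 detected in each library and Itgax and Cd207 at 0, against 12.5 to 22.5 CPM in lymph node, with 4 to 7 detected. Of 9 neutrophil markers in the table, Ltf alone had counts in any library, and the list summed to 315 and 608 CPM in skin and to at most 2.95 CPM in lymph node. The 8 keratinocyte markers summed to 132 and 166 CPM in skin and to 12.5 to 13.7 CPM in lymph node. B cell markers summed to 21.9 and 69.2 CPM in skin and to 82.2 to 216 CPM in lymph node, and CD8 T and NK cell markers to 22.0 and 0 CPM in skin and to 46.2 to 70.1 CPM in lymph node. Myeloid cells express Selplg and Cd44 too. The part of RNA from myeloid or other cells in the results below, those of Fut7 and Gcnt1 included, was not tested. In bulk RNA, fewer cells of a type and less RNA per cell cannot be told apart.

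The genes with a called difference are shown first by the DNA before their start sites. RefSeq promoters (GRCm38.p6, the build of mm10) were found for 7 of the 8 genes. The 250 bases upstream of the start lying farthest upstream are printed for Fut7, Gcnt1 and Cd44, the genes that were higher in skin together. Capitals mark matches on either strand to 8 words searched. These were the T-box half-site word TCACAC, the word GATAA of GATA factors, the AP-1 word TGACTCA, the GC box word GGGCGG, the TATA box word TATAAA, the ETS word GGAAGT, the Runx word TGTGGT and the E-box word CACGTG.
Fut7, chr2:25422992-25423241, plus strand: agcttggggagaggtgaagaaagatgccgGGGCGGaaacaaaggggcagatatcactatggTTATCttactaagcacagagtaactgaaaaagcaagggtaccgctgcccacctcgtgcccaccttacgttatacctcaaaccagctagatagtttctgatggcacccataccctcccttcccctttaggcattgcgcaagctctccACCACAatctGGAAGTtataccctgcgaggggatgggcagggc
Gcnt1, chr19:17372845-17373094, minus strand: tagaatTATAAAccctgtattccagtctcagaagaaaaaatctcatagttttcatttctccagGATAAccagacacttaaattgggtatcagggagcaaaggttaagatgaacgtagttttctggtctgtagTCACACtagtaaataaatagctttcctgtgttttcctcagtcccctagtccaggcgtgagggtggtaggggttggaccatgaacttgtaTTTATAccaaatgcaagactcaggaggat
Cd44, chr2:102901666-102901915, minus strand: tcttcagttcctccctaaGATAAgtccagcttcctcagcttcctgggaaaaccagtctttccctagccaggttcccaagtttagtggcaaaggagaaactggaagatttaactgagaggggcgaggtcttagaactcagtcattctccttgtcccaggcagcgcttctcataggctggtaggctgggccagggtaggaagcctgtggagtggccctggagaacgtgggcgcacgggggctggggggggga
The word they share is the GATA word, which 22.6% of 32851 RefSeq promoter windows of this length hold. It also lies in the St3gal6 window farthest upstream, 220 to 216 bases before the start, and St3gal6 was not called. A T-box half-site lies in the Gcnt1 window, 118 to 113 bases before the start, and in 12.3% of all windows. The Fut7 window holds a GC box word (32.7% of all windows), a Runx word (14.0%) and an ETS word (19.7%), and the Gcnt1 window has the TATA word at 2 places (12.4%). None of the marked words overlap each other. Fut7 has a further RefSeq start and Gcnt1 has 2 more, and the windows of these further starts lack the GATA word. Counts per gene do not show which start was used. These matches describe letters and not binding.

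Fut7 and Gcnt1, the enzymes that finish and branch the glycan, were low in lymph node Tregs and higher in skin Tregs. Fut7 (chromosome 2, 25423267 to 25426374, mm10) had 1245 and 935 counts in the skin libraries, that is 117 and 93.4 CPM on totals scaled by TMM, against 77, 124 and 153 counts or 5.41, 9.72 and 10.4 CPM in the lymph node libraries. Both skin values were above all 3 lymph node values. The log2 fold change, skin over lymph node, was 3.62 (SE 0.60, adjusted p = 0.0452 by edgeR's quasi-likelihood test over all tested genes), and 3.46% of the tested genes had a larger one. Gcnt1 (chromosome 19, 17326141 to 17372844) had 4063 and 2100 counts in skin (380.3 and 209.7 CPM) against 209, 244 and 185 in lymph node (14.7, 19.1 and 12.6 CPM). Its groups did not overlap either, although the level in skin library 2 was only 0.551 of that in skin library 1. The log2 fold change of Gcnt1 was 4.25 (SE 0.42, adjusted p = 0.0253 by edgeR), and 2.43% of the tested genes had a larger one.

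Fut4, the further fucosyltransferase, was barely detected. It had 0 counts in both skin libraries and 0, 0 and 77 counts in the lymph node libraries, the last of these 5.23 CPM. A single lymph node library therefore held its signal, and it was left out of the test by the low-count filter. The limit that 0 counts allow over both skin libraries is 3 counts, or 0.145 CPM.

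Of the scaffolds, Cd44 was higher in skin and Selplg was not past the threshold. Cd44 (chromosome 2, 102811141 to 102901665) had 18464 and 19300 counts in skin (1728 and 1927 CPM) against 4337, 3374 and 3752 in lymph node (305, 264 and 255 CPM). Both skin values were far above all lymph node values, and replicates lay close together, with a skin library 2 to library 1 ratio of 1.12 and a highest to lowest ratio of 1.19 among lymph node libraries. The log2 fold change of Cd44 was 2.73 (SE 0.18, adjusted p = 0.0169 by edgeR). Counts per gene do not separate the spliced forms of Cd44. Selplg (chromosome 5, 113818536 to 113832644) had 7749 and 6212 counts in skin (725 and 620.3 CPM) against 12597, 10089 and 12454 in lymph node (885, 791 and 846 CPM). Both skin values were below the lymph node values, by a log2 fold change of -0.32 with an SE of 0.18 (adjusted p = 0.301 by edgeR).

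Neither sialyltransferase passed the test. St3gal4 (chromosome 9, 35046576 to 35119268), one of the enzymes that cap the chain with sialic acid, had 78 and 1007 counts in skin (7.30 and 100.6 CPM) against 267, 86 and 72 in lymph node (18.8, 6.74 and 4.89 CPM). The skin libraries were 13.8-fold apart and skin library 1 lay within the lymph node range, so the groups overlapped. Its log2 fold change was 2.41 with an SE of 1.26 (adjusted p = 0.276 by edgeR). It became 3.30 without skin library 1 (adjusted p = 0.00467) and -0.48 without skin library 2 (adjusted p = 0.690), and over 13 alternatives of the processing (other tools, scalings and filters, a replicate block, or a library left out) the adjusted p ranged from 0.00467 to 0.9503. Among the 2616 tested genes within 2-fold of its lymph node level, 40.0% had skin libraries over 10-fold apart. A noncoding transcript on the other strand, 4930581F22Rik, shares 412 exonic bases with St3gal4, and the labels do not state whether counting used the strand.

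St3gal6 (chromosome 16, 58468125 to 58524243), a sialyltransferase that acts with St3gal4 in selectin ligand synthesis in mice, had 0 and 1 counts in skin against 112, 23 and 97 in lymph node (7.87, 1.803 and 6.59 CPM). The groups did not overlap. With 1 count in skin, the lymph node to skin ratio of pooled CPM was 115, with an exact 95% counting interval of 20.5 to 4567 that covers counting error only. The edgeR adjusted p was 0.0731, so St3gal6 did not pass. It passed in DESeq2 (adjusted p = 0.00164), in limma-voom (0.0256), without skin library 1 (0.0316) and without skin library 2 (0.0201), within a range of 0.00164 to 0.737 over the 13 alternatives. Of 2035 tested genes within 2-fold of its lymph node level, 31.3% had at most 1 count over both skin libraries, so a near-total lack of counts in skin was common at this level. Dcbld2, on the other strand, shares 1603 exonic bases with St3gal6 and had 135 and 0 counts in skin and 1, 7 and 18 in lymph node.

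B4galt1 (chromosome 4, 40804602 to 40854005) adds galactose to the lactosamine chain. It had 877 and 518 counts in skin (82.1 and 51.7 CPM) against 1506, 1688 and 1205 in lymph node (106, 132 and 81.9 CPM). The groups overlapped narrowly, and the log2 fold change of -0.67 had an SE of 0.43 (adjusted p = 0.374 by edgeR).

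**Figure D1:**
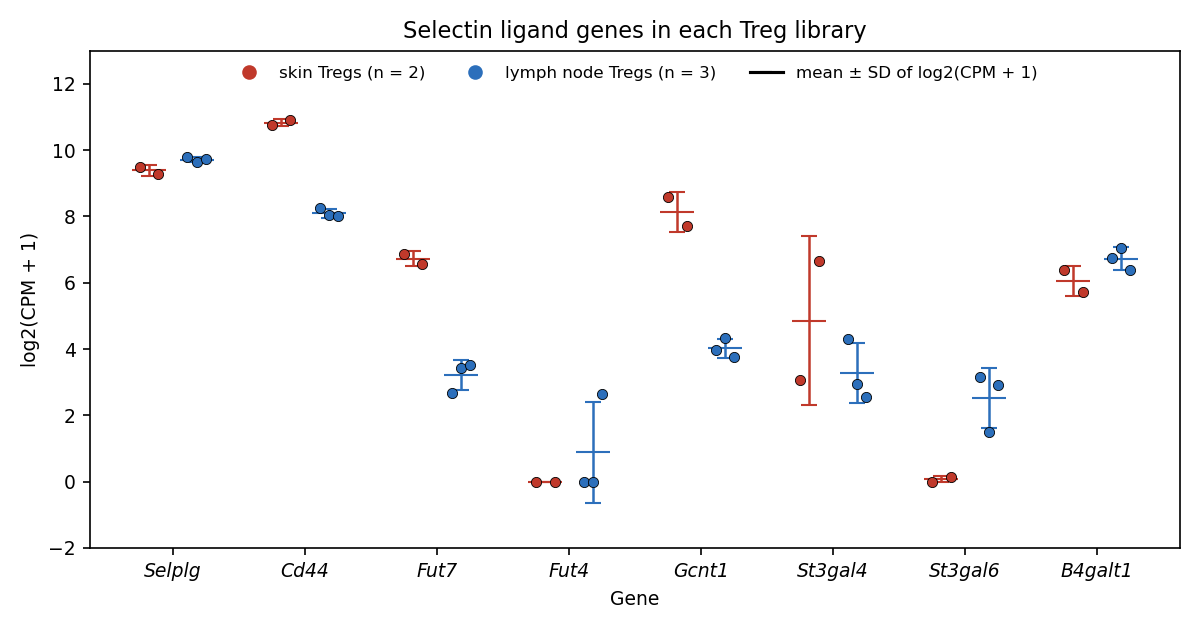
Each point is a library, on a log2(CPM + 1) scale, with skin Tregs (n = 2) left of lymph node Tregs (n = 3) for every gene, and bars give the mean ± SD on that scale. Cd44, Fut7 and Gcnt1 stand higher in both skin libraries, St3gal4 is split between its skin libraries at 7.30 and 100.6 CPM, and Fut4 is seen in a single lymph node library.

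In all, 3 of the 7 tested genes passed an adjusted p of 0.05, each higher in skin, and none was lower. The background was high: 7.70% of the 11437 tested genes passed, 2.40% higher and 5.30% lower in skin. Both skin libraries lay above the lymph node libraries for 3 of the 7 genes and below them for 2, where the shares over all tested genes were 16.8% and 33.5%. The median log2 fold change was 2.41 over the 7 genes and -0.21 over all tested genes. The first of these is the value of St3gal4, which was not called and was at -0.48 without skin library 2. The 3 calls rested on each lymph node library: without library 1, 2 or 3, Cd44, Fut7 and Gcnt1 had an adjusted p of 0.113, 0.115 and 0.115 in turn, and edgeR then called 0 genes of the whole table (2474, 2485 and 2361 at an unadjusted p under 0.05). DESeq2 and limma-voom called the 3 genes with all 5 libraries. Without a filter on low counts Fut7 had an adjusted p of 0.0516. Fold changes kept their sign over the 13 alternatives and lay between 2.65 and 3.44 for Cd44, 3.38 and 4.32 for Fut7 and 3.76 and 4.96 for Gcnt1 on the log2 scale, with adjusted p from 3.31e-19 to 0.117, from 5.59e-10 to 0.712 and from 9.26e-15 to 0.191.

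The sum of 10 T cell genes made up less of the skin libraries. The 10 genes used for a T cell scaling (Cd3d, Cd3e, Cd3g, Cd247, Cd4, Cd2, Cd5, Cd28, Lck and Lat) summed to 8593 and 9199 CPM of unscaled gene counts in skin and to 13692 to 16148 in lymph node. Scaling libraries by these genes moved the median log2 fold change of all tested genes to 0.49 and turned the sign of Selplg to 0.39 (adjusted p = 0.212) and of B4galt1 to 0.03 (adjusted p = 0.975). Relative to the median of all genes, the log2 difference of Selplg was -0.10 under this scaling and -0.11 under TMM. That of B4galt1 was -0.47 and -0.46, and that of Cd44 2.94 and 2.95. That of Fut7 was 3.82 and 3.84, and that of Gcnt1 4.46 and 4.47. A scaling shifts all genes of a library alike, so these differences had to stay nearly equal and are no separate test. The 3 calls held under TMM, DESeq2's size factors, unscaled totals and this scaling. Of the Treg markers not used for the scaling, Ctla4 and Ikzf2 were called higher in skin under TMM (adjusted p = 0.0271 and 0.0484 by edgeR). Foxp3, Il2ra and Tnfrsf18 were not past the threshold. Whether the lower sum of the 10 genes came from fewer T cells or less of their RNA per cell was not tested.

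**Figure D2:**
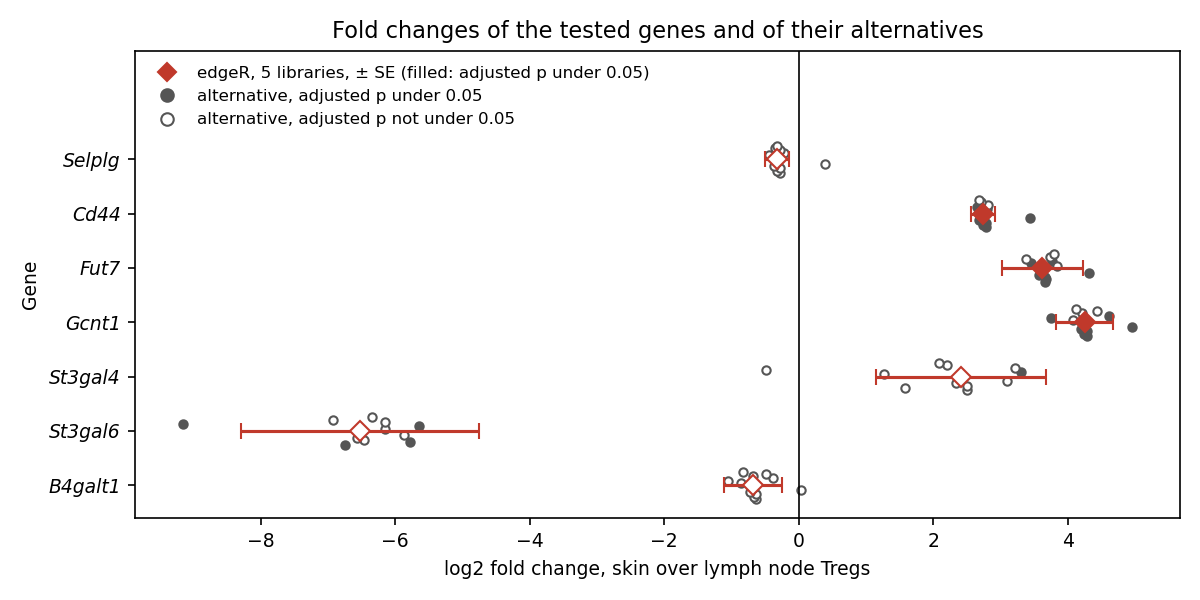
Red diamonds give the log2 fold change, skin over lymph node Tregs, from edgeR with all 5 libraries and its SE, filled where the adjusted p was under 0.05. Circles give the 13 alternatives, filled likewise. Cd44, Fut7 and Gcnt1 lie right of 0 in every alternative, while St3gal4 crosses 0 without skin library 2 and Selplg and B4galt1 cross it under the T cell scaling.

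The order of the genes by level per kb of exon changed between the tissues. Counts were divided by the length of all annotated exons (GENCODE M21) for this. In skin, Cd44 was highest at 269.7 ± 20.8 CPM per kb (SD, n = 2), followed by Selplg at 157 ± 17.4, Gcnt1 at 51.2 ± 20.9, Fut7 at 44.6 ± 6.95, St3gal4 at 18.4 ± 22.6 and B4galt1 at 15.8 ± 5.07 CPM per kb. In lymph node, Selplg was highest at 197 ± 11.1 CPM per kb (SD, n = 3), followed by Cd44 at 40.5 ± 3.89, B4galt1 at 25.2 ± 5.96, Fut7 at 3.61 ± 1.15, St3gal4 at 3.47 ± 2.57 and Gcnt1 at 2.68 ± 0.58 CPM per kb. St3gal6 and Fut4 came last in both tissues. Ranges overlapped between Gcnt1 and Fut7, between St3gal4 and B4galt1 and between St3gal6 and Fut4 in skin. In lymph node they overlapped between Fut7 and St3gal4, between St3gal4 and Gcnt1 and between St3gal6 and Fut4. The other neighbours in each order did not overlap.

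Ratios of 2 genes within a library need no scaling between libraries. Gcnt1 competes for core 1 glycans with St3gal1, the sialyltransferase that caps them, and St3gal1 itself was at 82.5 ± 40.9 CPM in skin and 85.7 ± 16.4 CPM in lymph node (SD, n = 2 and 3; log2 fold change -0.05, adjusted p = 0.959 by edgeR). Per kb, the ratio of Gcnt1 to St3gal1 was 4.06 and 4.65 in the skin libraries against 0.213, 0.318 and 0.144 in the lymph node libraries. Gcnt1 was thus the more abundant of the pair in both skin libraries and the less abundant in each lymph node library. The ratio of Fut7 to Selplg was 0.291 and 0.273 in skin against 0.0111, 0.0223 and 0.0223 in lymph node. That of Cd44 to Selplg was 1.502 and 1.96 in skin against 0.217, 0.211 and 0.190 in lymph node. No p is given for these ratios, because with 2 and 3 libraries the smallest two-sided p of an exact permutation test is 0.1. The pairs were picked after the values of the single genes had been seen.

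**Figure D3:**
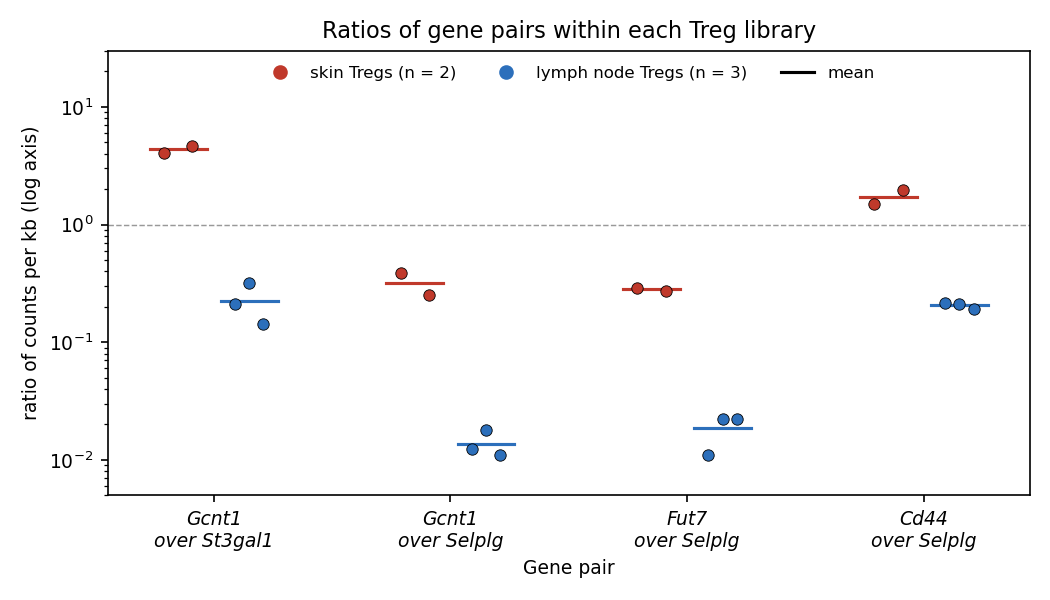
Points are the ratio of counts per kb of exon of 2 genes in each library on a log axis, with skin Tregs (n = 2) left of lymph node Tregs (n = 3), lines at the mean and a dashed line at a ratio of 1. The skin values lie above the lymph node values for each of the 4 pairs. Gcnt1 over St3gal1 lies above 1 in skin and below 1 in lymph node.

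Other genes of the pathway were called in both directions. Of 108 symbols in 13 lists covering scaffolds, selectins, donor sugars, other transferases, sulfation, hyaluronan genes and regulators, 106 were in the table and 79 were tested. In these, 4 were higher in skin, 6 lower and 69 not past the threshold, with a median log2 fold change of 0.05, which is 0.26 above the median of all tested genes. Under the T cell scaling 15 were higher and 7 lower, beside 1017 higher and 783 lower of all 11437 tested genes. The median of 0.76 was 0.26 above that of all genes, a distance that a scaling leaves nearly unchanged. Galnt6, Selp and Neu3 were not called without a filter on low counts (adjusted p = 0.0520, 0.0520 and 0.0566 in edgeR). All 10 calls under TMM were lost without lymph node library 1, 2 or 3. The share of calls, 10 of 79, stands beside 7.70% of all tested genes. Skin libraries were over 10-fold apart for 25 of the 79 (31.6%), with skin library 1 the higher for 19 of them. Lymph node libraries were so for 6 of the 79 (7.59%). Over all tested genes these shares were close, at 28.5% and 7.27%, and skin library 1 was the higher for 2092 of 3263 genes.

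Selp (P-selectin), best known from platelets and endothelium, had 0 counts in skin and 20.3, 20.4 and 22.0 CPM in lymph node, at least 144-fold lower in skin against a floor of 3 counts over the group (adjusted p = 0.0452 by edgeR). Of 3367 tested genes within 2-fold of its lymph node level, 10.2% had at most 1 count over both skin libraries. Sele (E-selectin) was not past the threshold, with 0 counts in skin and 4.78, 6.74 and 0 CPM in lymph node (adjusted p = 0.208). Of 6 endothelial markers, Cdh5 and Vwf were at 0 in all 5 libraries. The list summed to 55.5 and 2.77 CPM in skin and to 356 to 518 in lymph node, mostly Pecam1, which T cells also express. The part of endothelial RNA in the Selp and Sele counts was not tested.

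Among the scaffolds other than Selplg and Cd44, none of 6 tested genes passed. The most abundant were Cd164, a sialomucin, at 336 ± 78.3 CPM in skin and 418 ± 62.5 CPM in lymph node (adjusted p = 0.492 by edgeR), and Spn (CD43), which can carry E-selectin ligands on T cells, at 358 ± 184 CPM in skin and 352 ± 82.5 CPM in lymph node (adjusted p = 0.976).

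In the list of other fucosyltransferases, 1 of 6 tested genes was called higher and none lower, while the median log2 fold change of the list was -2.90. Both skin libraries lay below all lymph node libraries for 4 of the 6, beside 33.5% of all tested genes. Fut8, which adds fucose to the core of N-glycans and not to sialyl Lewis X, had 189 and 369 CPM in skin against 31.9, 24.8 and 16.8 CPM in lymph node (log2 fold change 3.51, SE 0.47, adjusted p = 0.0381 by edgeR). Genes that supply GDP-fucose gave no call among 5 tested. Tsta3, an enzyme of its synthesis, was at 87.8 ± 7.73 CPM in skin and 140 ± 20.5 CPM in lymph node (adjusted p = 0.230). Slc35c1, the Golgi transporter for GDP-fucose, had 94.4 and 0.899 CPM in the skin libraries against 92.9, 126 and 93.6 CPM in lymph node (adjusted p = 0.696).

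O-glycan initiation and core 1 genes gave 1 higher and 1 lower call among 10 tested. Galnt6, which attaches the first sugar of O-glycans, had 479 and 640 CPM in skin against 214, 201 and 238 CPM in lymph node (log2 fold change 1.36, SE 0.23, adjusted p = 0.0452 by edgeR). C1galt1c1 (Cosmc), the chaperone that the core 1 synthase C1galt1 needs to fold, had 1 and 0 counts in skin against 866, 294 and 850 in lymph node. The lymph node to skin ratio was 997, with an exact 95% counting interval of 179 to 39416, and edgeR gave an adjusted p of 0.0440. Of the 3718 tested genes within 2-fold of its lymph node level, 3.60% had at most 1 count over both skin libraries. C1galt1 was at 13.2 and 0 CPM in skin and at 6.53, 7.05 and 6.79 CPM in lymph node (adjusted p = 0.991).

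None of the 2 tested genes among the other branching enzymes passed. Gcnt7, of the same family as Gcnt1, was at 47.3 ± 18.9 CPM in skin and 4.78 ± 2.29 CPM in lymph node (SD, n = 2 and 3; log2 fold change 3.31, adjusted p = 0.0628 by edgeR). It passed in DESeq2 (adjusted p = 3.7e-05), under the T cell scaling (0.0432) and without skin library 1 (0.00137) or 2 (0.0118), within a range of 3.7e-05 to 0.734 over the 13 alternatives. Gcnt2 had 0 counts in skin and at most 2.92 CPM in lymph node (adjusted p = 0.241). In the lactosamine list 1 of 8 tested genes was lower. This was B3gnt5, which starts lactosamine chains on glycolipids, with 0 counts in skin and 21.9, 25.2 and 29.1 CPM in lymph node, at least 176-fold lower in skin (adjusted p = 0.0440 by edgeR). At most 1 count in skin was seen for 8.41% of 3509 tested genes within 2-fold of its lymph node level.

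Besides St3gal4 and St3gal6, 11 sialyltransferase genes were tested and 1 was lower. St8sia6, which adds sialic acid to sialic acid, had 0 counts in skin and 42.3, 75.1 and 34.7 CPM in lymph node, at least 342-fold lower in skin (adjusted p = 0.0411 by edgeR). The share of genes near its lymph node level with at most 1 count in skin was 3.38% of 3728. Genes that supply sialic acid and galactose donors gave no call among 6 tested, the most abundant being Nans, the sialic acid synthase, at 181 ± 97.6 CPM in skin and 139 ± 28.6 CPM in lymph node (adjusted p = 0.639). Slc35a1, the Golgi transporter of the sialic acid donor, had 19.5 and 0 CPM in skin against 102, 82.5 and 102 CPM in lymph node (adjusted p = 0.348). Neu3, a sialidase that acts mainly on gangliosides, fell to 2.15 and 0.300 CPM in skin, against 67.8, 75.6 and 85.7 CPM in lymph node (log2 fold change -5.95, SE 1.14, adjusted p = 0.0482 by edgeR), 1 of 2 sialidases tested. Its log2 fold change was -7.95 without skin library 1 and -5.15 without skin library 2.

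Sulfation, which PSGL-1 needs at its tyrosines for P-selectin binding, gave no call among 6 tested genes. Papss1, which makes the sulfate donor, was at 152 ± 69.6 CPM in skin and 68.2 ± 11.7 CPM in lymph node (adjusted p = 0.141 by edgeR), and its transporter Slc35b2 at 72.1 ± 8.57 CPM in skin and 30.8 ± 18.8 CPM in lymph node (adjusted p = 0.319).

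In the list of CD44 partners and hyaluronan genes 1 of 6 tested genes was higher. This was Lyve1, a hyaluronan receptor of lymphatic vessels and of tissue macrophages, with 449 and 905 counts in skin (42.0 and 90.4 CPM) and 0 counts in lymph node, at least 909.5-fold higher (adjusted p = 0.0452 by edgeR). Mrc1, a macrophage marker in the list above, was at 362 and 138 CPM in the same skin libraries and had 1 count over the lymph node libraries. The part of macrophage RNA in the Lyve1 result was not tested.

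Of 8 regulators linked to these genes, Gata3 alone passed, with 385 and 631 CPM in skin against 141, 129 and 150 CPM in lymph node (log2 fold change 1.86, SE 0.28, adjusted p = 0.0421 by edgeR). Gata3 is the master regulator of type 2 T helper cells and is also expressed by tissue Tregs. Tbx21 (T-bet), under which Fut7 and Gcnt1 are induced in mouse effector T cells, had 0 counts in skin and 0, 1.33 and 1.43 CPM in lymph node (adjusted p = 0.236). It was named after its values were seen.

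**Figure D4:**
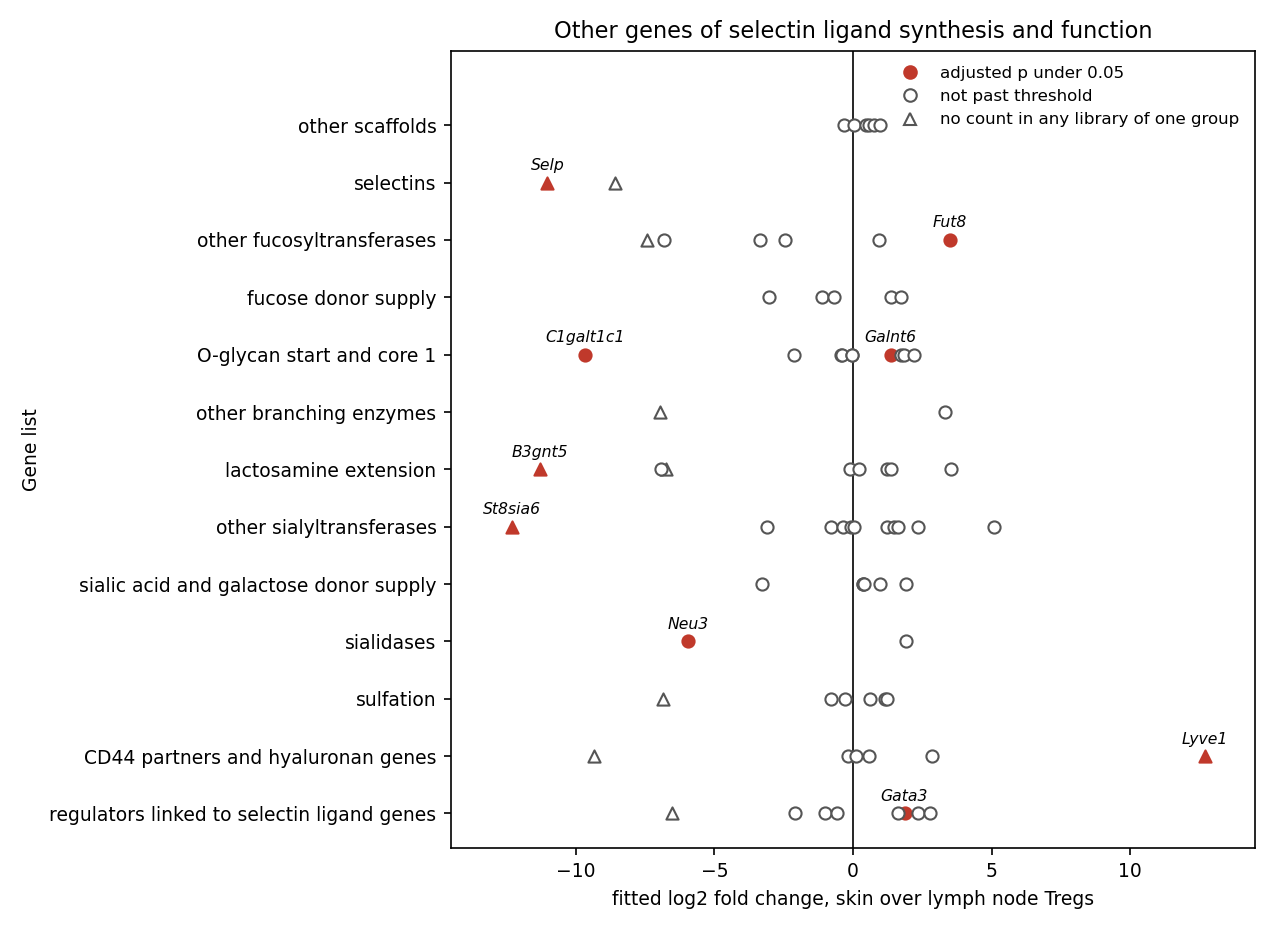
Each symbol is a tested gene of a list (1 gene is not shown), placed by its fitted log2 fold change, skin over lymph node Tregs. Filled symbols passed an adjusted p of 0.05 and are named. Triangles mark genes without a count in any library of a group, whose fitted value is no measure of size. The named genes are spread over 8 of the 13 lists.

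The genes most like each called member were taken by distance in centred log2 CPM over the 5 libraries, among 5606 other tested genes whose average log2 CPM reached 5. For Fut7 these were Itgae (distance 0.29), an integrin chain of epithelial retention, Sdc4 (0.50), a heparan sulfate proteoglycan, and Padi2 (0.51), a peptidylarginine deiminase. Itgae had 1100 and 957 CPM in skin against 60.8, 122 and 119 CPM in lymph node. For Gcnt1 they were Fam110a (0.66), Arl5a (0.74) and Sdc4 (0.85), and for Cd44 the filament protein gene Vim (0.32) and the annexin gene Anxa4 (0.35). These distances describe 5 libraries in 2 groups.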

How the data were processed

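Sorted Tregs were profiled by RNA sequencing (2 skin and 3 lymph node libraries). Per the labels' protocols, RNA was column-purified and turned into cDNA libraries with a SMARTer low-input kit. The tools listed, per the submitters' processing notes, are HTSeq 0.6.1, SAMtools 0.1.19.0, TopHat2 2.0.12, Bowtie2 2.1.0.0 and CASAVA 1.8.2, with the build mm10; options and the strand setting were not stated there. The authors' deposited table holds raw counts per gene symbol, with a header shifted by 1 cell. Its 5 HTSeq summary lines (78.3 to 80.7% of all counts per library, mostly alignments that were not unique) were left out.

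Counts were fitted with edgeR 4.0.16 (R 4.3.3): filterByExpr with a minimum count of 10, TMM, quasi-likelihood F test of skin over lymph node, Benjamini-Hochberg adjustment over 11437 tested genes, threshold 0.05; SE is the log2 fold change over the square root of F. CPM were taken on TMM-scaled totals of the tested genes; marker sums are per unscaled gene counts. The common dispersion was 0.843. The script was tested on simulated counts. Positions and exon lengths come from GENCODE M21 (GRCm38), promoters from RefSeq (GRCm38.p6). DESeq2 1.42.0, limma-voom (limma 3.58.1), other scalings and filters, a replicate block and leaving out each library were tried as alternatives. Intervals and floors (3 counts per group) cover counting error only, since PCR copies are not independent molecules.

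The 8 genes and the lists were chosen with earlier results of these data known. Named genes are the 8, from each list up to 4 past the threshold or otherwise the 2 most abundant tested, and the 3 genes most like each called member. Sele, St3gal1, C1galt1, Tbx21, Mrc1, Pecam1, Ltf, Itgax, Cd207, Cdh5, Vwf, Dcbld2 and 4930581F22Rik fall outside this rule. So do Ctla4, Ikzf2, Foxp3, Il2ra and Tnfrsf18. All of these were picked once values were known, as were the gene pairs for ratios. A pair of genes named by the rule is not reported here.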

Additional observations from a re-analysis of the deposited data

How the results depend on the processing

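Skin is represented by 2 libraries, and a gene without counts in both is bounded at 0.145 CPM by their depth. The number of the 8 genes called was 3 with all libraries in edgeR, 4 in DESeq2 and limma-voom, 2 without a low-count filter, and 0 to 5 when each library was left out in turn. Calls among the pathway genes numbered 10, but 28 in DESeq2, 17 in limma-voom, 22 under the T cell scaling and 0 to 47 without each library. Over all tested genes 881 were called, against 3351 in DESeq2, 2231 in limma-voom, 1800 under the T cell scaling (1017 higher and 783 lower, where TMM gave 275 and 606), 315 without a low-count filter, 1391 with a minimum count of 50, and 0 to 6065 without each library. The lone skin library left in such a fit is assumed to vary like the lymph node libraries. Fold changes turned sign for Selplg (0.39) and B4galt1 (0.0282) under the T cell scaling and for St3gal4 without skin library 2 (-0.48, within a range of -0.48 to 3.30 over the libraries left out in turn). The T cell scaling moved the median of all genes to 0.49, where it was -0.21 under TMM, and skin library 2 held the high St3gal4 value.

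Libraries with the same number are not stated to share a mouse or day, and their deviations correlated at -0.025 and -0.024. With 2 skin libraries the deviations of each mirror the other. The same lymph node libraries therefore gave 0.025 and 0.024 with the skin library of the other number. These values alone do not settle whether libraries were paired. The fit with the replicate number as a block called 0 of the 8 genes, 1 pathway gene and 21 genes overall (3, 10 and 772 at an unadjusted p under 0.05), with 1 residual degree of freedom.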
